A study of Mus musculus with 12 samples.

Results

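The subject is a set of 2898 copies of transposable elements (TEs) whose RNA was abundant in heterozygous gonocytes, the germ cells of the newborn testis. They were chosen from 298593 listed copies by a rule on the values themselves: a mean of at least 50 normalized counts over the 3 heterozygous libraries, and no overlap with an exon of the GENCODE M21 annotation (mouse build GRCm38) on either strand. The set makes up 0.971% of all listed copies and 1.04% of the 279269 listed copies that overlap no exon. Male germ cells were isolated from testes of mice with the Mvh-Venus reporter transgene at postnatal day 0, and their RNA was sequenced after low-input cDNA synthesis. The groups are Morc1 (+/-), here called het, and Morc1 (-/-), here called KO, with 3 libraries each, and both carry the reporter. The labels do not say whether the libraries of a genotype came from separate animals, so p-values measure only the spread between these libraries, which may be technical.

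TEs are repeated sequences that spread by copying themselves. Long copies of LINE and LTR elements can hold a promoter and the genes for their own movement, while SINEs and solitary LTRs (long terminal repeats left after the rest of an element was lost) are short. A copy inside an intron can be read as part of its host gene's unspliced RNA, and a copy outside genes can be read from its own promoter, from that of another copy or from a neighbouring gene. MORC1, an ATPase made in germ cells, is known for its role in silencing TEs in the male germ line. The table used here gives the position and strand of each copy but not its family, so copies are described by length, position and host.

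Some of the copies hold the annotated start of a gene, which makes part of their sequence visible. RefSeq promoter windows (250 bases before to 50 after each start, build GRCm38.p6) overlapped 34 of the 2898 copies (1.17%), against 236 (0.550%) of the 42880 tested copies with no exon. In 22 copies the start itself lay within the copy, on the strand of the copy in 18. Of these 22 copies, 18 were intergenic, 11 were at most 1 kb long and 10 were over 5 kb. Of the windows, 8 are shown here with 300 bases each, because together they hold a start in copies of steady, lower and higher KO level. Apart from C330020E22Rik and Gm33458, which lie in copies named by the rule for examples, they were picked after their values were seen. In the first 6, capitals mark the bases inside the TE copy, and the annotated start is base 251 of each window.
C330020E22Rik: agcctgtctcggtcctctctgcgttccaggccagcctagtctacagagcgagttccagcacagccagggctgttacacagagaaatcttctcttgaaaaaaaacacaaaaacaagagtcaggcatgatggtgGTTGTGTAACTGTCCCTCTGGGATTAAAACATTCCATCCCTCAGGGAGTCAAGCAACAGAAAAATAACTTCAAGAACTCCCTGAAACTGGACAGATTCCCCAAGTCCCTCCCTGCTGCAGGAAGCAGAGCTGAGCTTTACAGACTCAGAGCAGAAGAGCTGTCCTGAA
Gm40003: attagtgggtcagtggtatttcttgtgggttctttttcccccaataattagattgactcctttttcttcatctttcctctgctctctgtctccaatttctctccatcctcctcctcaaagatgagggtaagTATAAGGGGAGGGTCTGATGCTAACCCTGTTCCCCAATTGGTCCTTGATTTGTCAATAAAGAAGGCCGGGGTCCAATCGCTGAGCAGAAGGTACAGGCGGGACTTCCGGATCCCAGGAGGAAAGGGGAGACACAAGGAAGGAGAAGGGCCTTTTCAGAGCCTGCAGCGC
Gm33302: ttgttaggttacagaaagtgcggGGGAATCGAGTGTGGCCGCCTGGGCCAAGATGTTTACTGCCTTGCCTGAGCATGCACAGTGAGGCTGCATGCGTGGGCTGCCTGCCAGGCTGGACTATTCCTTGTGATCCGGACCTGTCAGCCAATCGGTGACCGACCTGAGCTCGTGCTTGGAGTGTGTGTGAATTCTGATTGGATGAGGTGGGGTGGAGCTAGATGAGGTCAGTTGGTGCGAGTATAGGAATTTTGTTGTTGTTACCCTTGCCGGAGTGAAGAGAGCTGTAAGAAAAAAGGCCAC
Gm42081: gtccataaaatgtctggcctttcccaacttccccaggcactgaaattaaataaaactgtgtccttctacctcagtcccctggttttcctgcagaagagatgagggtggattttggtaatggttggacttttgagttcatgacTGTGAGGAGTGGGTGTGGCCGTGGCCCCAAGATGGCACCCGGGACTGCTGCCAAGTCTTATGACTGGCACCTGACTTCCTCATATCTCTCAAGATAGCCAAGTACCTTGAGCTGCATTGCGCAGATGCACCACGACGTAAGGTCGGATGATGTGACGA
Gm12984: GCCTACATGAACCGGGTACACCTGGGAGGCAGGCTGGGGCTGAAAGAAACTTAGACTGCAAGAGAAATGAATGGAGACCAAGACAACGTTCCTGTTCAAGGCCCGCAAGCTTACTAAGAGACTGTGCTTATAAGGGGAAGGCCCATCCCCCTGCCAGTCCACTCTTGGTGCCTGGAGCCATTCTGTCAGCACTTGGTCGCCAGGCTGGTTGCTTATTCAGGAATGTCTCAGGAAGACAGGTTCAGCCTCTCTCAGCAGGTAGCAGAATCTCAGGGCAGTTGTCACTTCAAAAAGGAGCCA
Gm33458: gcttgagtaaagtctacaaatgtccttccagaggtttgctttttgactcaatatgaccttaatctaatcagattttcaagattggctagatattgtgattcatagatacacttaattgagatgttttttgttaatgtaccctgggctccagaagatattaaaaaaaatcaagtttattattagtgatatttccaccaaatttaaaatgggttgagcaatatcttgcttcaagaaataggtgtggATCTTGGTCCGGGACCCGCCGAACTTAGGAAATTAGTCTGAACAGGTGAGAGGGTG

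The C330020E22Rik window (chr4:129382469-129382768, plus strand) shares 168 bases with a copy of 506 bp, and its start lies 118 bp from the 5′ end of that copy. The Gm40003 window (chr2:170673789-170674088, minus strand) shares 169 bases with a copy of 534 bp, and its start lies 119 bp from that copy's 5′ end. The Gm33302 window (chr9:97275489-97275788, plus strand) shares 277 bases with a copy of 361 bp. The Gm42081 window (chr11:61397754-61398053, minus strand) shares 158 bases with a copy of 353 bp. The Gm12984 window (chr4:135305882-135306181, plus strand) lies wholly inside a copy of 406 bp on the opposite strand. In the Gm33458 window (chr2:56801255-56801554, minus strand) 56 bases belong to a copy of 8540 bp, and the start lies 6 bp inside it. RefSeq lists C330020E22Rik, Gm33302, Gm42081 and Gm33458 as long noncoding RNAs.

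The remaining windows are those of Gm46854 (chr4:51876397-51876696, plus strand) and Gm46950 (chr6:7724023-7724322, plus strand), each wholly inside a copy of over 7 kb. They were 99.7% identical over 300 bases, aligned end to end. Capitals mark the 1 base that differs (G152A, counted from the 5′ end of the window, Gm46854 first).
Gm46854: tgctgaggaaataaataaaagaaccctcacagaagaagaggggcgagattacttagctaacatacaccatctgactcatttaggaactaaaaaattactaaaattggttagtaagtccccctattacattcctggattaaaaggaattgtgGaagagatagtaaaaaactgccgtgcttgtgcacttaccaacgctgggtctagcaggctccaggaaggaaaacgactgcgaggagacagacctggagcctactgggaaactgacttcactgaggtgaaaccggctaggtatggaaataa
Gm46950: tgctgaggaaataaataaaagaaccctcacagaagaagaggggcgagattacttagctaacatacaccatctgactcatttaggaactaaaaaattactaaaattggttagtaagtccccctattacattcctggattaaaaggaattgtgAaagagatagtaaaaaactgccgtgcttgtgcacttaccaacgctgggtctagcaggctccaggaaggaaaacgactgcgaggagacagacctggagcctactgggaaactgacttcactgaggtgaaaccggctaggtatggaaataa

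Short sequence matches in the 8 windows were searched on both strands. TATAAA, the core of the TATA box, occurred in 0 of the 8 and in 13.6% of all 32851 RefSeq windows. CCAAT was found in 5 of the 8 and in 37.4% of all windows, and AATAAA, the polyadenylation signal, in 5 of the 8 and in 19.6% of all windows. In the Gm40003 window CCAAT began at bases 165 and 204 within the copy, followed by AATAAA at base 186 between them. In the Gm33302 window CCAAT began at base 145 on the gene's strand and at base 194 on the other strand. The matches in the Gm42081 and Gm33458 windows lay outside the TE copy. The near-identical Gm46854 and Gm46950 windows held the same matches at the same bases. The counts over the 8 windows are therefore not counts of copies with a match. These matches describe letters only.

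The values of these copies ran in all directions. Values are given in the order of replicates 1, 2 and 3. The copy at the start of Gm40003 had 332, 338 and 425 normalized counts in het against 338, 329 and 532 in KO, so the genotypes overlapped. The copy at the start of Gm33302 had 134, 111 and 160.1 in het and 177, 145 and 239 in KO, again with overlap. At Gm42081 the copy had 62.2, 70.7 and 23.0 in het against 21.9, 21.7 and 5.99 in KO. There the KO libraries were all lower than the het libraries, although het replicate 3 lay close to the KO range. At Gm12984 the copy had 65.4, 47.1 and 49.8 in het and 7.63, 4.64 and 0 in KO, a mean of 54.1 ± 9.86 against 4.09 ± 3.85 (SD, n = 3). The copy at Gm46854 had 63.3, 51.6 and 56.5 in het and 251, 409 and 127 in KO. That at Gm46950, with the near-identical window, had 75.9, 48.2 and 43.1 in het and 193, 296 and 116 in KO. In both of these every KO library was above every het library, with KO replicate 2 the highest. How the authors counted reads that match several near-identical copies is not given in the sources used here, so the split of reads between such copies is uncertain.

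The libraries held 28363683 to 32816861 reads on genes and 1974504 to 3703419 reads on TE copies, of which 244794 to 326017 lay on the abundant copies. Morc1 itself had 7248, 7485 and 4126 normalized counts in het and 1360.5, 1343 and 1794 in KO, with no overlap (limma log2 fold change -2.03, adjusted p 0.0109). Leaving out het replicate 1 ended that call (adjusted p 0.0511), as did leaving out KO replicate 1 (0.101) or KO replicate 3 (0.0663). The exact two-sided permutation p was 0.1, the smallest that 3 against 3 libraries can give. Of the 10 gonocyte markers, Ddx4 and Dazl were high in all 6 libraries, while Nanos2 had 16.4 to 47.5 normalized counts. None of the 10 passed the threshold (limma, 1 with an unadjusted p under 0.05). KO replicate 2 was far above the other KO libraries in Nanos3 (58.4, 488 and 87.2 in KO), Zbtb16 (311, 1812 and 159) and Id4 (237, 1003 and 180). Het replicate 3 also stood apart: the summed level of the 5 Leydig cell markers was 776 and 1079 in het replicates 1 and 2, 24921 in het replicate 3, and 510 to 1075 in KO. The summed level of the 7 Sertoli cell markers was 17536 to 37259 in het and 12581 to 18099 in KO. None of the 5 and none of the 7 passed the limma threshold (3 of the Sertoli cell markers had an unadjusted p under 0.05), and all of them had negative log2 fold changes. The part of these cells in the TE values was not tested. In these bulk libraries, fewer cells of a type and less RNA per cell cannot be told apart.

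The abundant copies were mostly modest in level and short. Their het mean was between 50 and 100 normalized counts in 2188 copies (75.5%), between 100 and 200 in 541, between 200 and 500 in 151 and from 500 up in 18, while the median over all listed copies with no exon was 3.54. Their median length was 660.5 bp, with quartiles of 358 and 1868 bp, against a median of 588 bp for all tested copies with no exon. Copies over 5 kb made up 10.6% of the set and 18.5% of the tested copies. Tested copies needed a mean of at least 10 over all 6 libraries, so copies high mainly in KO are among them. Tested copies with no exon over 6 kb had median levels of 10.8 normalized counts in het and 52.0 in KO. This limit holds for every comparison with the tested copies by length, position or distance. The rule counts reads and not reads per length, so a long copy passes it at a lower level per kb: the median was 461 normalized counts per kb for copies of up to 250 bp and 11.4 per kb for those over 6 kb.

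**Figure D1:**
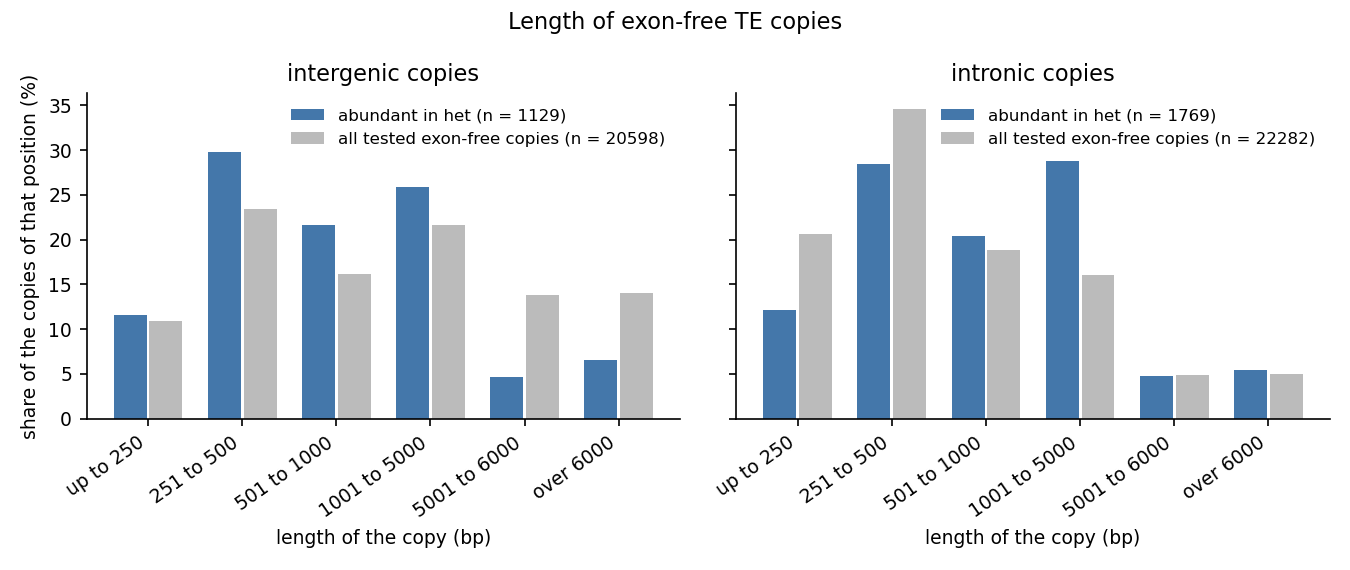
Share of copies (%) in each length class (bp), for the 1129 intergenic and 1769 intronic abundant copies (blue) and for all tested copies with no exon (grey). Intergenic abundant copies were less often over 5 kb than the tested copies, while intronic ones were more often of over 1 and up to 5 kb (28.8% against 16.05%).

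By position, 1769 copies (61.0%) lay in introns and 1129 (39.0%) outside genes, against 52.0% and 48.0% of the tested copies. Intergenic copies over 6 kb were 6.55% of the intergenic abundant copies and 14.1% of the intergenic tested copies. For intronic copies the shares over 6 kb were 5.43% and 5.02%. Of the intronic copies, 710 (40.1%) lay on the strand of their host, 984 (55.6%) on the opposite strand and 75 (4.24%) in hosts on both strands. Among all tested intronic copies 35.8%, 60.4% and 3.76% did. With the rule computed without het replicate 3, the share on the host's strand fell below that of the tested copies. Without het replicate 1 or 2 it stayed above. Copies on the host's strand were longer, with a median of 1085.5 bp against 536 bp for those on the opposite strand. Every chromosome held some, from 0.10% of the set on chromosome Y to 7.94% on chromosome 2. Chromosome 11 held 7.56% of the set and 5.31% of the tested copies, and chromosome X held 3.55% and 4.26%.

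The rule has a sharp edge in a dense range. The 3 copies just inside it had het means of 50.003, 50.01 and 50.01 normalized counts, and the 3 just outside had 49.9996, 49.997 and 49.99. Het libraries varied: the median coefficient of variation over the 3 was 37.1%, and 1315 copies (45.4%) were at 50 or more in each of them. Het replicate 3 was more than 2 times both other het libraries in 440 copies (15.2%) and less than 0.5 times both in 536 (18.5%). For het replicates 1 and 2 these numbers were 19 and 20 copies above and 41 and 61 below. Among the KO libraries, replicates 1, 2 and 3 were above both others in 150, 283 and 185 copies. They were below both in 152, 323 and 315, by the same limits. Of the 2898 copies, 1894 remained at a mean of 50 or more whichever het library was left out.

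Of the 8 most abundant copies outside genes, 5 were 122 to 506 bp long, and 1 was called in KO. The highest was a copy of 214 bp (chr9:99170793-99171006, plus strand) that overlaps the RefSeq noncoding gene Gm33857, with 1774, 2282 and 982 normalized counts in het against 1329, 1101 and 3517 in KO. The libraries overlapped, and KO replicate 3 alone exceeded the het range. The next, a copy of 414 bp (chr9:97281560-97281973, minus strand) that overlaps the RefSeq gene Gm33302, had 1194, 1259 and 1254 in het and 1249, 1319 and 1422 in KO. This was the steadiest of the 8 highest intergenic copies, at 1235 ± 36.02 and 1330.0 ± 87.5 (SD, n = 3). A copy of 122 bp (chr3:92690817-92690938, plus strand), 659 bp downstream of Gm4202 and on its strand, had 1174, 1467 and 924 in het and 1190.4, 926 and 986 in KO.

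A copy of 391 bp (chr2:151644295-151644685, plus strand) lay 719 bp from the GENCODE end of Rad21l, which encodes a cohesin subunit of meiotic chromosomes, on the opposite strand. It overlaps the RefSeq extent of that gene. It had 1141, 1076 and 997 in het and 1057, 875 and 2734 in KO, so that KO replicate 3 stood far above the other 5 libraries. A copy of 2364 bp on chromosome X (chrX:9329227-9331590, minus strand) had 923, 661 and 530.0 in het and 568, 819 and 916 in KO, with overlap. The copy at the start of C330020E22Rik (chr4:129382601-129383106) had 625, 712 and 748 in het and 556, 246 and 498 in KO. Its KO libraries were all below its het libraries, at a log2 fold change of -0.76 that did not pass the threshold.

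Among the 8 highest intergenic copies, 2 were longer than 4 kb, and both were lower in every KO library than in any het library. The copy of 7201 bp that overlaps the RefSeq noncoding gene Gm34144 (chr5:72563861-72571061, plus strand) had 1178, 879 and 995 in het and 751, 458 and 381 in KO, and was not called. The copy of 4911 bp that overlaps the RefSeq gene Gm42081 (chr11:61391434-61396344, minus strand) had 1307, 931 and 572 in het and 271, 393 and 163 in KO. It was called lower, at 29.4% of the het mean. Leaving out het replicate 1, KO replicate 1 or KO replicate 3 ended the call, as did a pseudocount of 0.1 or no trend. Over the alternative fits its adjusted p reached 0.0912. Its neighbour at the start of Gm42081 is the one whose window is printed above. The 4 abundant copies of this locus summed to 1295 ± 467 normalized counts in het and 372 ± 173 in KO (SD, n = 3), and 3 of them were called lower.

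In introns the highest copy was also the shortest of those named, 59 bp in Meikin (chr11:54402293-54402351, plus strand), a gene for a kinetochore protein of meiosis. It had 1619, 1613 and 1409 in het and 1321, 940.4 and 1701 in KO, with overlapping libraries. RefSeq also lists a pseudogene, Gm12226, over this copy, and its level was not examined. Meikin itself had 281 ± 16.2 normalized counts in het and 268 ± 74.6 in KO (SD, n = 3). A copy of 3618 bp in Mov10l1 (chr15:89032751-89036368, plus strand), the helicase gene that feeds piRNA precursors into the pathway, had 476, 424 and 717 in het against 460, 559 and 228 in KO. The copy of 567 bp in Stip1 (chr19:7023008-7023574, plus strand), a co-chaperone gene on the other strand, had 659, 635 and 189 in het against 594, 272 and 381 in KO. The copy of 1562 bp in Ankrd17 (chr5:90307755-90309316, plus strand) had 536, 482 and 395 in het and 418, 327 and 836 in KO. In Mov10l1, Stip1 and Ankrd17 the libraries of the genotypes overlapped, and a single library of either genotype lay apart from the others.

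Other high intronic copies were lower in KO. The copy of 5036 bp in Tmem30c (chr16:57284022-57289057, plus strand), opposite to its host, had 594, 629 and 1002 in het and 325, 494 and 270.3 in KO, without overlap and without passing the threshold. Copies of 974 and 668 bp lay side by side in introns of the noncoding genes Gm12861 and Gm12865, which overlap on opposite strands (chr4:118995440-118996413 and chr4:118994699-118995366, minus strand). The longer had 989, 686 and 311 in het and 336, 213 and 194 in KO, and its libraries overlapped. The shorter had 792, 473 and 328 in het and 250, 166 and 179 in KO, and was called lower. That call ended when any 1 library other than het replicate 3 was left out and under gene size factors. It also ended with a pseudocount of 0.1, without a trend and with the replicate block in limma or edgeR. Over the alternative fits its adjusted p reached 0.195. The gene Gm12865, counted over exons, had 56.3 ± 6.64 normalized counts in het and 41.4 ± 6.20 in KO (SD, n = 3), with an adjusted p of 0.903 in limma. A copy of 532 bp in Sugct (chr13:17521284-17521815) had 616, 479 and 377 in het and 86.8, 89.0 and 62.4 in KO, and it belongs to a run of 10 abundant copies there of which 9 were called lower.

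**Figure D2:**
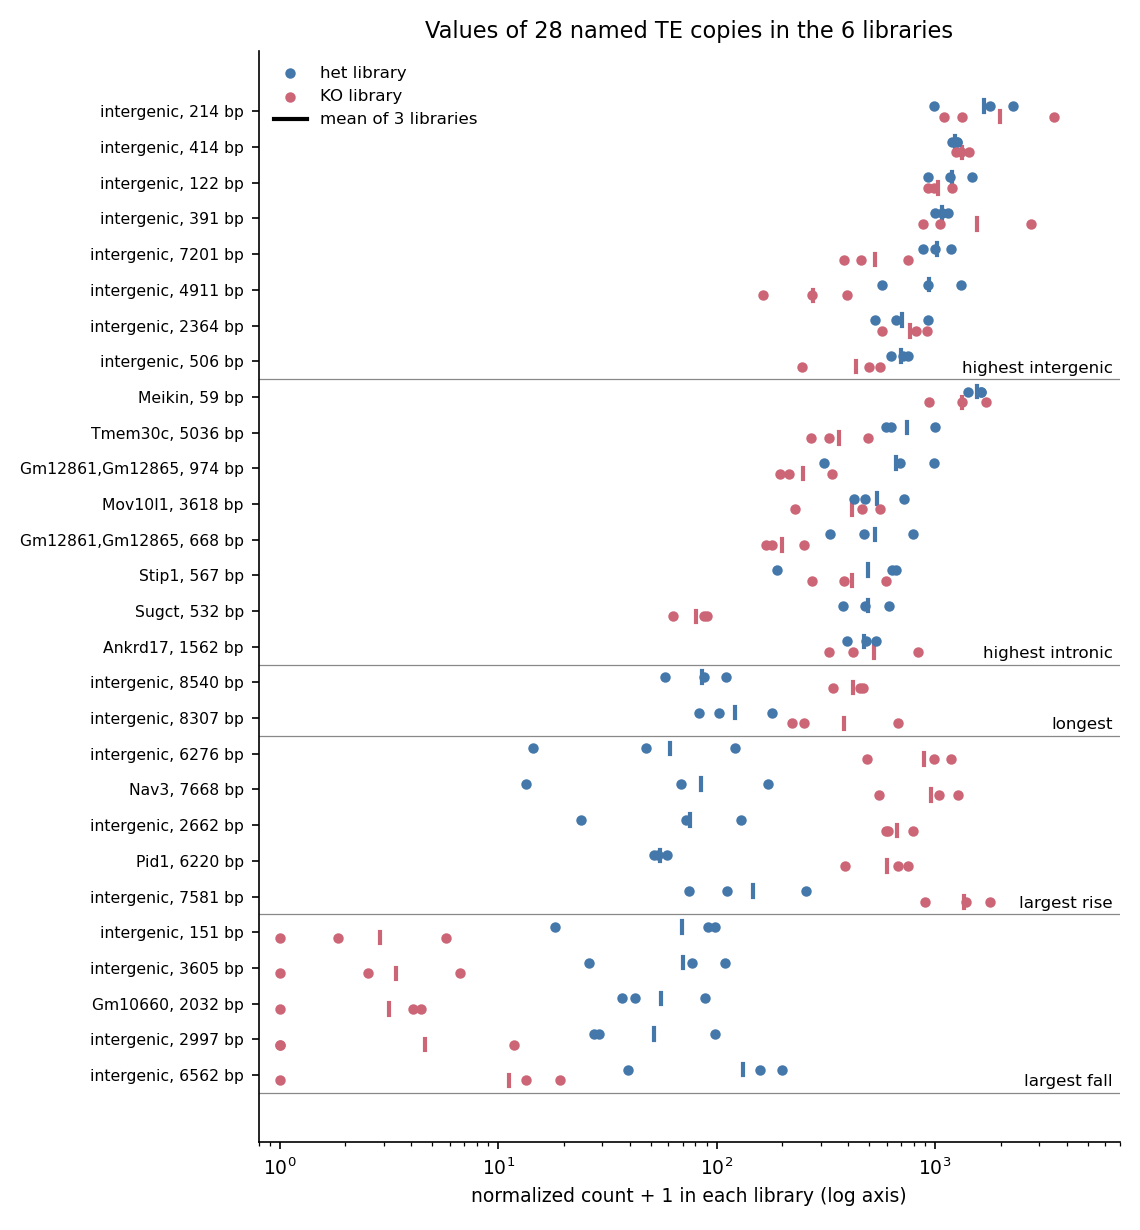
Normalized count plus 1 (log axis) of 28 named copies in each het library (blue points) and KO library (red points), with the mean of 3 libraries as a short bar. Copies are labelled by host gene or position and by length. The 8540 and 8307 bp copies and the largest rises have every KO point right of every het point, and the largest falls have KO points at or near 0.

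Long copies named for their length were called higher in KO. The copy of 8540 bp at Gm33458 (chr2:56792771-56801310) had 57.0, 109.9 and 86.3 in het against 451, 469 and 341 in KO. The copy of 8307 bp near Gm3213 (chr10:6346322-6354628, plus strand) had 101.2, 81.9 and 177 in het and 249.9, 675 and 221 in KO. In both the KO libraries lay above the het libraries. In the second the gap was narrow, and the call ended when any 1 library other than het replicate 3 was left out. It also ended with a pseudocount of 0.1, without a trend, with the replicate block in limma or edgeR, and in edgeR without it. Over the alternative fits its adjusted p reached 0.225.

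The 5 largest rises among the called copies were in copies of 2662 to 7668 bp. A copy of 6276 bp on chromosome 18 (chr18:64048663-64054938, plus strand) had 46.4, 13.5 and 119.8 in het and 986, 1185 and 488 in KO. A copy of 7668 bp in Nav3 (chr10:110008986-110016653, minus strand, on the strand of its host) had 67.5, 12.3 and 171 in het against 1037, 1270.2 and 553 in KO. The copy of 6220 bp in Pid1 (chr1:84263501-84269720, plus strand) was the most even in het, with 50.6, 52.7 and 58.5, and had 749.7, 674 and 387 in KO. Neither host passed the threshold: Nav3, a gene of a neuronal cytoskeletal protein, had a limma log2 fold change of 0.46 and Pid1 one of -0.45. The remaining copies, of 2662 bp on chromosome X (chrX:86533245-86535906) and 7581 bp on chromosome 17 (chr17:89257835-89265415), had KO means 8.97 and 9.25 times their het means. In all 5 rises KO replicate 3 or KO replicate 1 was the lowest KO library, and still above every het library.

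The 5 largest falls were in copies with het means of 50.4 to 131 normalized counts, 4 of them outside genes. A copy of 151 bp (chr9:48921796-48921946, minus strand) had 90.7, 97.6 and 17.3 in het and 4.77, 0 and 0.855 in KO. It lies with 3 other abundant copies within 2502 bp, all 4 called lower, and their sum went from 229 ± 96.4 in het to 31.4 ± 23.3 in KO (SD, n = 3). Copies of 3605 and 6562 bp on chromosome X (chrX:119299484-119303088 and chrX:119793032-119799593) had KO means of 3.49% and 7.74% of their het means. The copy of 2032 bp in the noncoding gene Gm10660 (chr8:67357898-67359929, minus strand) had 41.1, 35.9 and 87.2 in het against 0, 3.10 and 3.42 in KO. The copy of 2997 bp on chromosome 14 (chr14:107801995-107804991, minus strand) had 26.4, 28.04 and 96.8 in het and 0, 10.8 and 0 in KO. In these 5 copies het replicate 3 was either the lowest or the highest het library, so their het means rest on uneven values. The calls of the chromosome 9 copy and of the 6562 bp copy ended when het replicate 1 or 2 was left out (adjusted p up to 0.0718 and 0.0943). That of the 6562 bp copy also ended with a pseudocount of 0.1. That of the chromosome 14 copy ended when any 1 library other than het replicate 1 and KO replicate 2 was left out. It also ended with a pseudocount of 0.1 and in edgeR with or without the replicate block (adjusted p up to 0.0994 over the alternative fits). With so few KO reads a fold change depends on the pseudocount of 1.

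Over the whole set, 88 copies were called higher and 144 lower in KO, and 2666 were not called. A call here is an adjusted p under 0.05 in limma over all 49781 tested copies, where 15.6% were called higher and 0.735% lower. Among the tested copies with no exon the shares were 17.5% and 0.76%. With the gene size factors in place of those of the TE table, 118 of the abundant copies were higher and 88 lower, beside 18.1% and 0.376% of all tested copies. Because the het values chose the copies, a copy that was high in het by its spread is favoured to be lower in KO, and nothing is read from these counts against the background. Every KO library was above every het library in 156 copies and below in 463, where 22.8% and 7.58% of all tested copies did so. An unadjusted limma p under 0.05 was found in 515 copies. This number is not split by direction and has no share over all tested copies beside it, so nothing is read from it. With het replicate 3 left out of both the rule and the fit, 85 of 2988 copies were called higher and 231 lower. For the copies of the full rule, the fit without het replicate 1 called 60 higher and 62 lower, and that without het replicate 2 called 55 and 80. The fit without KO replicate 1 called 52 higher and 126 lower.

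The median log2 fold change of the set was -0.38 (on the log2 scale of the normalized count plus 1), that of all tested copies 0.03, and that of all tested copies with no exon 0.10. With gene size factors the median of all tested copies was 0.31 higher on this scale, and the median of the set was then -0.05. The mirror rule shows how far the choice of group sets such numbers: 6919 copies with no exon had a KO mean of at least 50, and their median was 2.55, with 4472 called higher and 17 lower. The 1739 copies that satisfied both rules were 60.0% of the abundant copies and 25.1% of the KO-chosen ones. The 1716 copies abundant in het that overlap an exon had a median of -0.27, with 11 called higher and 21 lower.

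**Figure D3:**
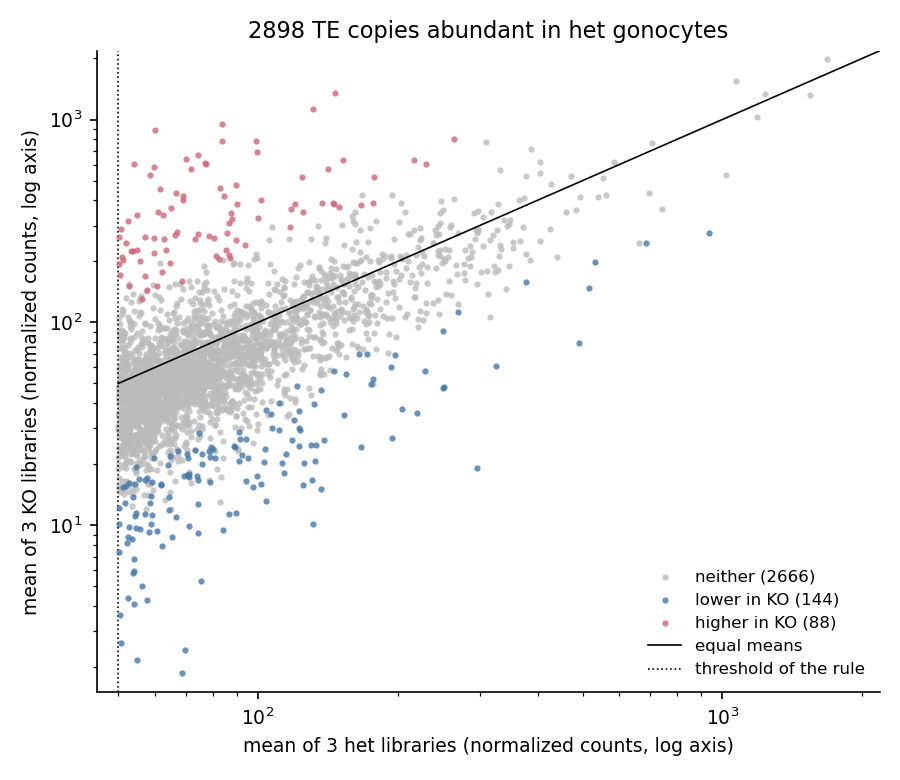
Mean of the 3 het libraries against the mean of the 3 KO libraries (normalized counts, both axes log) for the 2898 copies. Red points are the 88 called higher, blue points the 144 called lower and grey points the 2666 not called. The dotted line is the threshold of 50 that cuts the cloud on the left, and the solid line marks equal means. In 1606 copies (55.4%) the means were within 1.5 times of each other, and 2154 points (74.3%) lie below the solid line.

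Of the abundant copies, 1739 (60.0%) also had a mean of at least 50 in KO. Because the het values chose the copies, this share and those that follow do not measure how steady the copies were. The means of the genotypes were within 1.5 times of each other in 1606 copies (55.4%), and the KO mean was the lower one in 2154 (74.3%). Every KO library had at least 1 read on 2864 of the copies, and no copy was without reads in all KO libraries. Only 27 copies had a KO mean under 10, and all 27 were called lower. The copies called lower had a median KO level of 22.7% of het, and those called higher a median of 3.97 times the het level.

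Called copies differed in length by direction. The 88 called higher had a median length of 5513.5 bp, with 45 of them over 5 kb and 14 of at most 1 kb. The 144 called lower had a median of 482 bp, with 8 over 5 kb and 103 of at most 1 kb. Of the tested copies with no exon over 5 kb, 58.7% were called higher and 0.201% lower. Of the higher copies 64 were intergenic, and of the lower copies 94. Among all tested copies with no exon, 5797 of the 7489 called higher and 213 of the 326 called lower were intergenic. Most calls of each direction were thus intergenic in the background too, and nothing is read from the 64 and 94. The counts of at most 1 kb have no such background beside them. The median length of the tested copies with no exon was 588 bp, so nothing is read from the 14 and 103 either. Among the 170 abundant copies over 6 kb, 40 were called higher and 5 lower, and their median log2 fold change was 0.05. Of the tested copies with no exon over 6 kb, 61.5% were called higher and 0.224% lower. Of the 170 abundant copies, the 74 outside genes had a median log2 fold change of 0.38 and the 96 in introns one of -0.11. In the other length classes the medians of the abundant copies ran from -0.45 to -0.34. The tested copies with no exon over 6 kb had a median of 2.53, so long copies that were already abundant in het had a smaller change than long copies in general. This gap is in the direction that choosing by het level gives, and it was not tested.

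**Figure D4:**
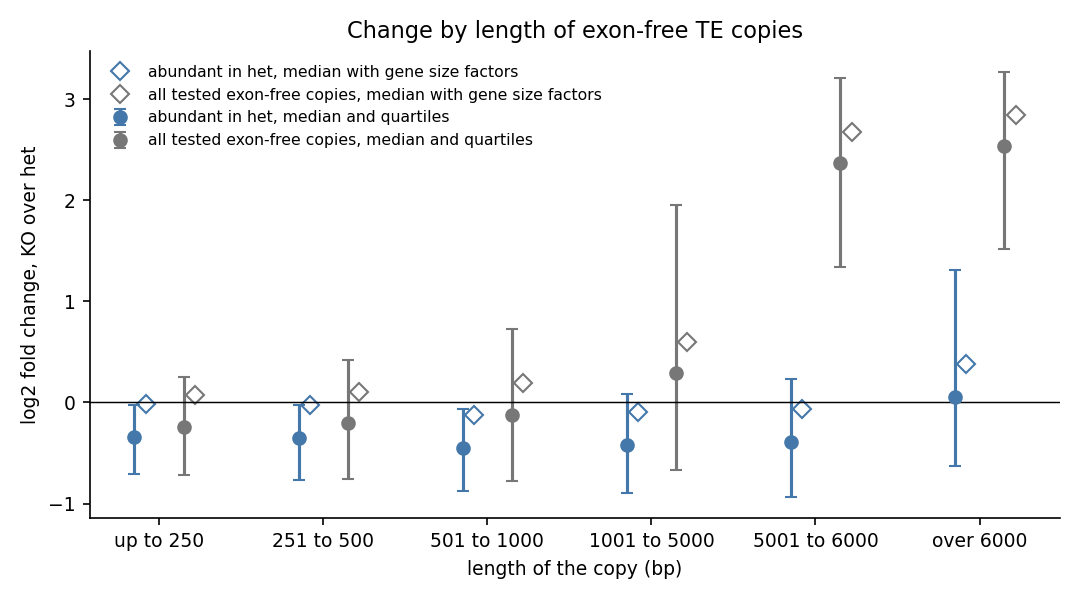
Median log2 fold change, KO over het, by length class (bp) for the abundant copies (blue) and all tested copies with no exon (grey), with quartiles as bars. Open diamonds are the medians with gene size factors, which lie higher throughout. The abundant copies stay near 0 or below up to 6 kb, and the tested copies rise above 2 in both classes over 5 kb.

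The direction of the summed RNA of the abundant copies depended on the scale. Per 100 reads on genes, they had 0.825, 0.746 and 1.01 reads in het and 0.823, 1.15 and 0.957 in KO, or 0.861 ± 0.137 and 0.976 ± 0.164 (SD, n = 3). On that scale the libraries overlapped. In deposited values, which are scaled within the TE table, het had sums of 280840, 274590 and 280142 against 251552, 252344 and 265270 in KO. There all KO sums lay below all het sums, at 0.921 times the het mean. Because the het values chose the copies, the rule favours lower KO sums, and this is a description only. The 170 copies over 6 kb had 0.0411, 0.0364 and 0.0838 reads per 100 gene reads in het and 0.0975, 0.158 and 0.0854 in KO, so that het replicate 3 lay just under the KO range. For the other 276371 copies with no exon the sum was 4.75 ± 1.177 in het and 7.83 ± 1.97 in KO (SD, n = 3). The abundant copies held 16.1%, 16.2% and 14.3% of the reads on copies with no exon in het and 11.1%, 10.2% and 12.3% in KO. A lower share in KO is likewise favoured by the rule.

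**Figure D5:**
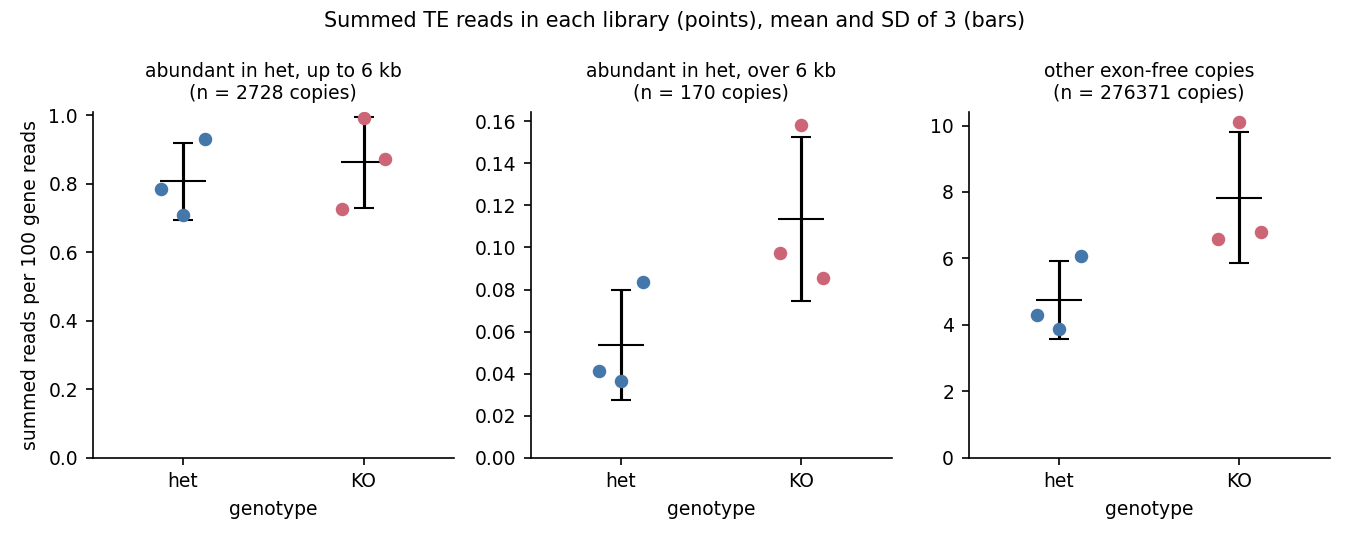
Summed reads per 100 gene reads in each library (points), with the mean and SD of 3 libraries, for abundant copies of up to 6 kb, abundant copies over 6 kb and all other copies with no exon. Each panel has its own axis from 0. Genotypes overlap in the first panel, and in the others every KO library lies above every het library.

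The host genes come from the gene table, which counts exons and played no part in the rule. The 1769 intronic copies lay in 1272 genes, of which 1204 were tested and 955 held a single abundant copy. Hosts were long and well expressed: their median het level was 1327 normalized counts against 199 for all tested genes, and their gene bodies had a median of 75637 bp against 14076 bp. Among protein-coding genes alone the levels were 1545 and 587 normalized counts. These counts are not per length. Of the matched hosts, 89.2% were protein-coding.

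Few hosts changed. Of the 1204 tested hosts 2 were called higher and 1 lower, where 0.431% and 0.0423% of all 26005 tested genes were (limma, adjusted p under 0.05). Patj, a scaffold gene of epithelial polarity, rose from 1234 ± 215 normalized counts in het to 3574 ± 72.8 in KO (SD, n = 3). Its log2 fold change was 1.55 (SE 0.21) with a limma adjusted p of 0.0123. Fam19a4, a secreted factor gene, rose from 175 ± 25.6 in het to 681 ± 263 in KO (SD, n = 3), with a limma adjusted p of 0.0479. Amy1, the salivary amylase gene, fell from 403 ± 96.0 in het to 111 ± 23.9 in KO (SD, n = 3), with a limma adjusted p of 0.0396. Leaving out het replicate 1, KO replicate 1 or KO replicate 3 ended the call of Patj. That of Fam19a4 ended when any 1 library other than KO replicate 2 was left out, and that of Amy1 whichever library was left out. Over all their alternative fits the adjusted p reached at most 0.103 for Patj, 0.254 for Fam19a4 and 0.192 for Amy1. Each of the 3 held 1 abundant copy, and none of those copies was called. Of 74 called intronic copies, 65 had a tested host and 0 had a called one. With so few genes called at all, these numbers are too small to set against the shares over all tested genes and copies. Across the 1204 hosts, the log2 fold change of the host and the median over its copies had a Pearson correlation of 0.214 and a Spearman correlation of 0.180. Both come from the same 6 libraries, and genes are not independent replicates.

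The 5 hosts with the most abundant copies were Sugct (13), Ankrd12 (11), Auts2 (11), Tex14 (10) and Otud7a (8). Sugct, an enzyme gene of glutarate metabolism, had 106 ± 37.1 normalized counts in het and 145 ± 58.9 in KO (SD, n = 3) with a limma adjusted p of 0.908, while the median of its copies was -2.50. Ankrd12, the gene of a nuclear ankyrin repeat protein, had 2477, 2329 and 3989 in het and 1408, 2304 and 1536 in KO. Auts2, a gene of neural development, had 4932 ± 1089 and 4534 ± 945 (SD, n = 3). Tex14, which germ cells need for their intercellular bridges, had 4708 ± 1420 and 6690.2 ± 1365 (SD, n = 3). Otud7a, a deubiquitinase gene, had 203 ± 6.53 and 191 ± 115 (SD, n = 3). None of the 5 was called, and outside Sugct none of their copies was, with medians of -0.18, -0.62, -0.53 and -0.84 for the other four in that order.

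Genes that act on TEs were examined as hosts and in their own levels. Of 30 such genes (piRNA pathway, DNA methylation and H3K9 methylation genes, and the other MORC genes), 0 passed the threshold in limma or edgeR. The unadjusted limma p was under 0.05 in 4 of them, and 15 had positive and 15 negative log2 fold changes. Mov10l1 had 12593, 12337 and 8582 normalized counts in het and 23526, 15170.3 and 27099 in KO (limma log2 fold change 0.95, adjusted p 0.252). Spocd1, needed for piRNA-directed DNA methylation, had a log2 fold change of -0.93 (limma adjusted p 0.347). Of the listed genes 5 were hosts of abundant copies: Mov10l1 (4), Mael (3), Ddx4 (3), Asz1 (2) and Tdrd9 (2). Of these copies 1, in Tdrd9, was called lower, and 0 were called higher. The medians over the copies ran from -1.59 in Tdrd9 to -0.25 in Mov10l1, on the log2 scale of the fold change.

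Copies outside genes lay near genes more often than tested copies did. The median distance to the nearest gene was 7370 bp for the 1129 intergenic abundant copies and 13206 bp for all 20598 tested intergenic copies. Within 1 kb of a gene lay 17.3% against 9.11%, and within 5 kb 42.5% against 30.1%. Within 5 kb, the shares downstream of the gene were 12.2% against 8.10% on its strand and 10.3% against 7.24% on the other. Upstream they were 9.83% against 7.01% and 10.2% against 7.78%. Although outside GENCODE genes, 243 copies (21.5%) overlapped the body of a RefSeq gene, against 13.9%. These shares describe the positions of copies selected on het reads.

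Among the 480 copies within 5 kb of a gene, 385 had a tested nearest gene, 329 genes in all, of which 2 were called higher and 1 lower, beside 0.431% and 0.0423% of all tested genes. These numbers are too small to set against that background. Hmgcs1, an enzyme gene of cholesterol synthesis, fell from 15875 ± 696 normalized counts in het to 7448 ± 1094 in KO (SD, n = 3). Its log2 fold change was -1.10 (SE 0.19) with a limma adjusted p of 0.0394. Upstream of it on its strand, at 867 and 1438 bp, lay 2 abundant copies that were both called lower. The nearer (chr13:119689072-119689512) had 144, 126 and 70.9 in het against 40.1, 5.42 and 8.55 in KO. The farther (chr13:119688471-119688941) had 162, 149 and 104 in het and 42.9, 21.7 and 14.5 in KO. Hmgcs1 had no KO library within the het range, and its change was smaller than that of the copies, whose log2 fold changes were -3.01 and -2.46. The call of Hmgcs1 ended whichever library was left out, and over the alternative fits its adjusted p ran from 6.85e-05 to 0.209.

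The higher genes were Ccdc28a and AA792892, and neither abundant copy beside them was called. Ccdc28a rose from 543 ± 36.002 normalized counts in het to 1861 ± 437 in KO (SD, n = 3), with a limma adjusted p of 0.0121. That call ended when any 1 library other than het replicate 3 and KO replicate 2 was left out, and over the alternative fits the adjusted p reached at most 0.0841. The copy of 441 bp on the opposite strand 774 bp downstream had 50.6 ± 25.1 in het and 23.8 ± 5.93 in KO (SD, n = 3). AA792892 had 0, 1.93 and 3.90 in het and 39.6, 271 and 166 in KO (limma adjusted p 0.0272). This call ended when het replicate 1 or any 1 KO library was left out, with a pseudocount of 0.1 and without a trend. Over the alternative fits its adjusted p reached 0.232. Across the 385 copies, the log2 fold changes of copy and nearest gene had a Spearman correlation of 0.309 and a Pearson correlation of 0.269, within the same libraries and with some genes counted more than once.

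Abundant copies lay in groups along the chromosomes. Joined over gaps of at most 10 kb they formed 2337 loci, of which 1958 held 1 copy, 379 held 2 or more with 940 copies among them, and 18 held 5 or more. The 144 copies called lower lay in 108 loci, 23 of which held more than 1 of them. The 88 called higher lay in 85 loci, of which 3 held more than 1. No locus held calls in both directions. The count of lower loci is thus smaller than that of lower copies, and copies of one locus are not separate observations of KO.

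The loci with the most copies, 10 each, had lower mean sums in KO than in het, a direction that the rule favours. On chromosome 13, the 10 copies in Sugct (17520071 to 17542922) summed to 1888 ± 256 normalized counts in het and 371 ± 115 in KO (SD, n = 3). On chromosome 7, 10 intergenic copies all on the plus strand (6605571 to 6639949) summed to 1181 ± 162 and 942 ± 405 (SD, n = 3), with 0 called. Another 10 on chromosome 7 (29877694 to 29889987), 402 bp from Zfp420, summed to 825 ± 78.2 and 458 ± 203 (SD, n = 3), also with 0 called. Loci of 9 and 8 copies on chromosome X had mean KO sums of 51.9% and 76.3% of het. Those of 7 copies on chromosome 11 had 55.0% and 66.5%. Loci of 6 copies ran from 36.9% to 105%, and the Gm33302 locus was the highest of them. On chromosome 9, the 6 copies of the Gm33302 locus (97275512 to 97281973) summed to 1789 ± 94.3 and 1885 ± 131 (SD, n = 3).

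Further loci held several lower copies. On chromosome 9 (6584870 to 6601503), 5 intergenic copies summed to 1085 ± 465 in het and 378 ± 34.8 in KO (SD, n = 3), and 2 of them were called lower. On chromosome 2 (23959336 to 23964134), 3 copies, all on the minus strand and all called lower, summed to 187, 154 and 289 in het and 34.3, 38.7 and 54.7 in KO. On chromosome 3 (149265855 to 149267415), 3 copies on the minus strand, all called lower, summed to 349, 368 and 565 in het and 100.2, 92.9 and 89.0 in KO. In both of these loci het replicate 3 was the highest library and the KO libraries lay close together. A locus of 3 plus-strand copies on chromosome 14 (74308125 to 74324039), in the gene Gm49171, went the other way: 2 copies were called higher, and the sum was 402, 412 and 633 in het and 1106, 1341 and 1065 in KO.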

How the data were processed

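Both deposited tables hold a signal, called normalized counts here: reads divided by 1 size factor per library, as the name of the deposited gene table says and as the steps of the values show for both tables. Per the submitters' processing notes the tools were bcl2fastq 2.20, cutadapt 1.18, HISAT2 2.1.0, featureCounts 1.5.2 and DESeq2 1.26.0, with the builds mm10 and GRCm38. Strand handling, the source of the TE annotation and how reads with more than 1 match were counted are not given in the sources used here. Whole reads were recovered from the steps of the values (100% of values within 0.01 read). Features with a mean of at least 10 were fitted with limma 3.58.1 in R 4.3.3 (trend, two-sided, log2 of the value + 1, Benjamini-Hochberg over all tested features), without a block. On recovered reads, edgeR 4.0.16 called 6478 copies higher and 356 lower, and DESeq2 1.42.0 called 7816 and 815. On simulated data with 200 of 49781 copies changed 8-fold, limma recovered 170 with 3 false calls. The simulation used the same dispersion for every copy and no deviating library, so false calls in these data were not measured. Positions came from GENCODE M21 with bedtools 2.31.1. Starts of copies were taken as 1-based. An intronic copy overlaps a gene but no exon. Named copies are the 8 highest of each position, the 3 longest, and the 5 largest changes in each direction among called copies, and named hosts the 5 with the most copies. Of these copies 1 is not reported here. Alternatives changed the pseudocount, filter, scaling, tool, rule and libraries. Other samples of the series, at postnatal day 3, were not analysed here. The copies and lists were chosen with earlier results of these data known.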

Additional observations from a re-analysis of the deposited data

How the results depend on the processing

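Of 88 copies called higher and 144 lower, none was called in the opposite direction in an alternative fit. Leaving out 1 library gave 52 to 126 higher, 62 to 194 lower and medians of -0.40 to -0.36 (reported -0.38), and 0 to 3 called hosts, against 3. Without a trend 43 rose and 77 fell. Gene size factors gave 88 lower and a median of -0.0503, edgeR a median of -0.52, and DESeq2 222 lower and -0.54. A pseudocount of 10 gave a median of -0.33, and a mean of at least 50 gave -0.22. Called hosts numbered 1 with a pseudocount of 0.1, without a trend, or with host strand required, then 6 with a pseudocount of 10, 5 unfiltered and 21 in DESeq2. The log2 fold change of Morc1 ran from -2.31 to -1.88 with 1 library left out, its call ending in 3 of 6 cases.

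Deviations of same-numbered libraries had no common sign (correlations over copies 0.146, -0.243 and -0.117, over genes 0.138, -0.163 and -0.0438). Values were centred within the 3 libraries of each genotype, which ties these correlations together. Whether same-numbered libraries share an origin cannot be told from them. With the replicate block 66 copies rose, 132 fell, the median was -0.38 and 1 host was called. edgeR with the replicate block gave 33, 67 and -0.53.

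The rule moved more than the fits. A het mean of at least 25 took 10087 copies (502 higher, 287 lower, summed difference 0.404 per 100 gene reads). At least 100 took 710 copies (20 higher, 56 lower, median -0.31, 42.4% intergenic). The mirror rule, a KO mean of at least 50, took 6919 copies (4472 higher, 17 lower, median 2.55, 63.6% intergenic, 37.8% of hosted copies on the host strand, 54.7% over 5 kb, summed difference 2.04). A mean over all libraries took 4702 copies (2248 higher, 74 lower, median 1.23, 55.3% intergenic, 43.6% over 5 kb, summed difference 1.42). Exon overlap on the copy's strand alone gave a median of -0.34, 30.8% intergenic, 28.0% on the host strand and 8.59% over 5 kb. With the rule computed without het replicate 1, 2 or 3, the host strand share was 43.4%, 42.5% and 33.0%, and the share over 5 kb 12.1%, 12.8% and 6.63%. Without het replicate 3 the median was -0.35, and with that library also left out of the fit -0.58 with 231 lower. The edgeR fit with the block, the rule and fit both without het replicate 3, and reading starts as 0-based were chosen after seeing the data.

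Of 13 named copies not called, 8 turned the sign of the log2 fold change in some alternative. With 1 library left out in turn, chr9:99170793 ran from -0.39 to 0.45, chr2:151644295 from -0.15 to 0.67, chrX:9329227 from -0.0536 to 0.35, the Stip1 copy from -0.71 to 0.19 and the Ankrd17 copy from -0.34 to 0.34. edgeR gave -0.0300 for chr9:97281560 and -0.0123 for chrX:9329227, and DESeq2 gave -0.0567 and -0.0349 for them and -0.0023 for the Ankrd17 copy. edgeR with the replicate block gave -0.0632 for chr9:99170793, -0.0335 for chr9:97281560, -0.0019 for chrX:9329227 and -0.10 for the Ankrd17 copy. Gene size factors gave 0.15 for chr3:92690817, 0.0673 for the Meikin copy and 0.21 for the Stip1 copy. Low counts limit the copies near the threshold of the rule, but these 13 copies had het means of 471 to 1679 normalized counts. The cause of each move was not tested.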

Other observations

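Some pairs of copies over 5 kb whose lengths differed by at most 10 bp had nearly equal reads in every library. The copy at chr2:47122855-47129479 had 46, 56, 125, 659, 903 and 585 recovered reads in het replicates 1 to 3 then KO replicates 1 to 3, and the copy at chr3:52430676-52437303 had 48, 52, 128, 647, 888 and 589. The pair at chr4:41871689-41877123 and chr4:42220930-42226364 had 68, 63, 70, 31, 99 and 93 against 69, 59, 70, 32, 92 and 97. Whether the same reads were counted at both places was not tested.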
